A study of Rattus norvegicus with 9 samples.

Results

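Remote ischemic postconditioning (RPostC) is a short series of artery clamps on a limb, applied when blood flow returns to the heart. The comparison reported here sets the left ventricle of rats with ischemia-reperfusion injury (IRI) and RPostC against that of rats with IRI alone, over 6 arrays, 3 of each group, out of 9 arrays in the series. The members were every probe set of the transcript cluster type on the array, 65403 of 65526, the other 123 being controls. A probe set is the group of probes that reads 1 transcript cluster, and its value is a log2 signal, so that a difference of 1 is a doubling.

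All animals were male Wistar rats of 250 to 290 g. In the IRI + RPostC group a main coronary branch (LAD) was shut for 45 min, and the femoral artery of the left leg went through 3 cycles of 30 s closed and 30 s open. The IRI group had the same 45 min block without the limb clamps, and both groups had 15 min of stabilization. In the control group, used here only as a level to read the others against, the thread was placed for 60 min and not tied. A separate passage on the operation puts the ligation at 30 min instead, and the time at which tissue for RNA was taken was not found in the sources used here. Nor do they say how many rats gave the 3 arrays of each group, and the spread behind every p-value here is that among arrays, which may be technical.

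Reopening a blocked coronary artery sets off inflammation in the heart muscle: cytokines and fragments of dead cells act on receptors that release the transcription factor NF-κB, and cytokines of the interleukin-6 family act through the shared receptor gp130 on Janus kinases and the transcription factor STAT3. Conditioning stimuli are known to engage survival kinases, among them AKT and ERK (the RISK pathway), and the JAK-STAT3 route (the SAFE pathway). These pathways work largely through phosphorylation, which an RNA array does not read. In a piece of ventricle, fewer cells of a type and less RNA per cell cannot be told apart.

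The 2 groups lay close together. Pearson correlations over all probe sets were 0.9939 to 0.9968 among the IRI + RPostC arrays and 0.9916 to 0.9949 among the IRI arrays, and 0.9917 to 0.996 between them. Most probe sets, 88.34%, differed by less than 0.263 on the log2 scale, a fold of 1.2. At an adjusted p of 0.05 (limma, Benjamini-Hochberg over all 65403), 0 probe sets passed, which is 0% of those tested, and the smallest adjusted p was 0.229. At an unadjusted p under 0.05 there were 2069 probe sets (3.16%). With a fold of at least 1.2 added, 667 were higher in IRI + RPostC (1.02%) and 585 were lower (0.894%). The genes described below are therefore given as values with their spread, and "called" means an unadjusted p under 0.05. Adjusted p-values of the genes named, each at the probe set that stands for it, lay between 0.311 and 0.874. Many genes named below were ranked by p or by size among those whose groups did not overlap. For these the lack of overlap was a condition of selection and adds no support. Of 91 named genes and probe sets that were called, 59 were called in each of the 6 fits that left out 1 array, and 15 to 27 were not called when a given array was left out. After quantile normalization 23 of the 91 were not called, and after cyclic loess 13.

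Higher and lower probe sets differed in how bright they were. The 667 higher ones had a median signal of 6.64, and 61.2% of them averaged 6 or more, whereas the 585 lower ones had a median of 4.27 and 9.06% averaged 6 or more. A signal of 4.79 was the level under which 95% of the odorant and taste receptor genes lay, so most of the lower probe sets were near background. Among 5057 protein-coding genes with a clear signal (a mean of 6 or more over the 6 arrays, none at the top of the scale), 174 were called higher with a fold of at least 1.2 (3.44%) and 2 were called lower (0.0395%). Counted by groups that did not overlap, 364 were higher (7.2%) and 17 lower (0.336%). That imbalance moved with brightness and with the scaling of the arrays. The median difference was -0.03 for probe sets with a signal under 4, 0.05 between 6 and 8, 0.14 between 10 and 12, and 0.15 between 12 and 15. After quantile normalization of the 6 arrays the called genes were 89 higher and 23 lower, all 89 among the 174, and the genes without overlap turned to 164 higher and 882 lower. After cyclic loess they were 127 higher and 10 lower, with 126 of the 127 among the 174, and 215 higher and 430 lower without overlap. Of the 4341 genes with a clear signal and a difference under a fold of 1.2, the direction turned in 40.8% after quantile normalization and 26% after cyclic loess. Of the 716 at a fold of 1.2 or more it turned in 1 and 0.

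**Figure D1:**
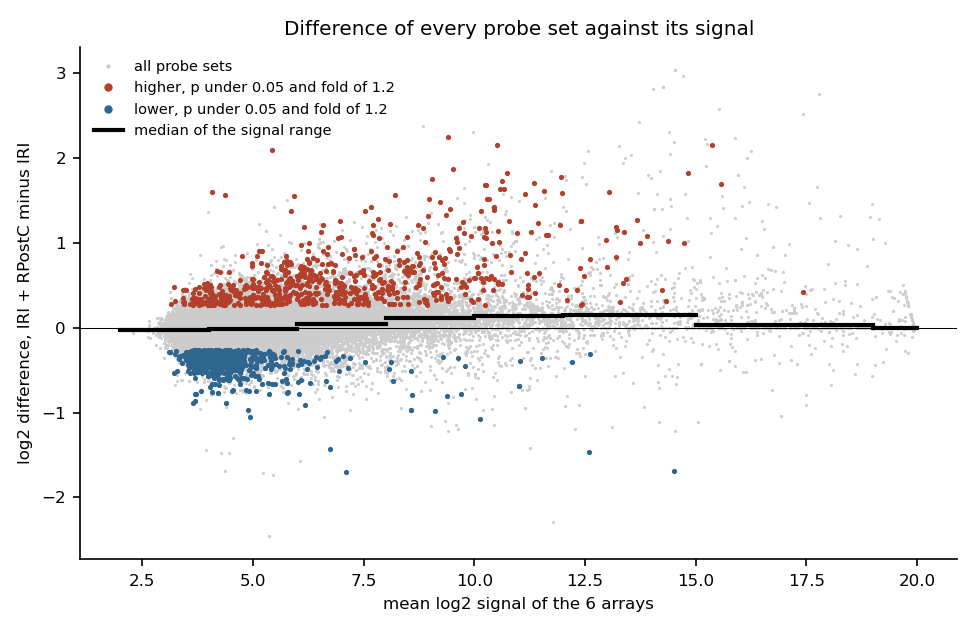
Each point is 1 of the 65403 probe sets, with its mean log2 signal over the 6 arrays on the horizontal axis and the log2 difference, IRI + RPostC minus IRI, on the vertical axis. Red points are the 667 higher and blue points the 585 lower ones by p and fold, and black lines are medians of signal ranges, which lie at -0.03 under a signal of 4 and at 0.15 between 12 and 15.

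The deposited values also hold many repeats. In 4209 probe sets the 3 IRI values were identical while the IRI + RPostC values were not, and 4205 of these sat at the median of the 9 arrays. In 4208 the same was true of the IRI + RPostC values alone, 4198 of them at that median. Of the 174 higher genes with a clear signal, 23 had 3 identical IRI values and 85 had at most 2 distinct ones, against 8 with at most 2 distinct IRI + RPostC values. For such genes the small SD of the IRI group is a property of the table and not a measured precision. Identical values are given below for many genes, but some appear only as a difference. Of these, Cxcl16, Col5a2, Skil and Lcn2 had 2 distinct IRI values. Mrps23, Map2k4 and Lamp2 had 2 distinct IRI + RPostC values, and Atg4b and Itgb5 had 3 identical ones. Among the 91 called genes and probe sets named, 18 had 3 identical IRI values and 16 had 2 distinct ones. Without the probe sets tied in a group, 173 genes with a clear signal were called higher, 150 of them among the 174.

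The NF-κB list, of 18 measured subunits, inhibitors and kinases, had 5 members called higher and 0 lower, and a median difference of 0.18. Over all 20958 genes, with 1 probe set each, 1.8% were called higher and 0.845% lower, and the median was 0.00. Brighter genes were called higher more often. By p alone, 254 of the 5057 protein-coding genes with a clear signal were higher and 6 lower, with a median of 0.06. In the NF-κB list 9 of the 18 had a clear signal, and this number varied from list to list. Nfkb1, which encodes the p105 precursor of the p50 subunit, had the smallest p of the protein-coding genes with a clear signal, each taken at its brightest probe set. It read 8.74, 8.66 and 8.81 on the IRI + RPostC arrays, against 8.06, 8.05 and 8.07 on the IRI arrays and 6.10 to 6.25 on the control arrays. All 3 postconditioned values stood above all 3 IRI values, and the difference was 0.68 ± 0.04 (SE), a 1.6-fold higher signal. It was 0.54 after quantile normalization and between 0.64 and 0.71 when each array was left out in turn.

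Rel, the c-Rel subunit, read 9.75, 9.29 and 9.64 in IRI + RPostC, against 8.45, 8.53 and 9.02 in IRI and 6.69 to 7.04 in control. The groups did not overlap, and the difference was 0.89 ± 0.21. Tnip1, a partner of A20 that restrains NF-κB, read 6.51, 6.81 and 6.46 in IRI + RPostC, against 5.79, 6.07 and 6.05 in IRI. It was higher by 0.62 ± 0.13. Chuk, the IKKα kinase, differed by 0.17 ± 0.04, with 3 IRI values identical at 8.14, and was not called after quantile normalization, at 0.05. Nfkb2, the p100 precursor, differed by 0.15 ± 0.04. It was named after its values were seen, as the fifth of the called members. The inhibitor genes that NF-κB itself induces were bright and variable. Tnfaip3, which encodes A20, read 10.96, 10.57 and 10.21 in IRI + RPostC, against 7.48, 9.60 and 9.73 in IRI and 4.52 to 5.19 in control. The groups did not overlap, but the p was 0.071, and without IRI replicate 1, the lowest of the IRI arrays, the difference of 1.64 became 0.92. Nfkbia, encoding IκBα and also named after its values were seen, read 11.96, 12.60 and 12.22 in IRI + RPostC, against 11.53, 12.11 and 11.34 in IRI, and these groups overlapped.

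The promoters of Nfkb1 and Tnfaip3 are shown because Nfkb1 had the smallest p of this list and Tnfaip3 the largest difference, and both are textbook targets of the factor they belong to or restrain. Sequences come from RefSeq on the build GRCr8 and run from 250 bases before the gene start to 50 after it. Capitals mark matches to the κB consensus on either strand. The Nfkb1 window is chr2:226805413-226805712 on the minus strand, with 1 match that begins 3 bases past the start, and the Tnfaip3 window is chr1:15543930-15544229 on the minus strand, with 3 matches.
Nfkb1: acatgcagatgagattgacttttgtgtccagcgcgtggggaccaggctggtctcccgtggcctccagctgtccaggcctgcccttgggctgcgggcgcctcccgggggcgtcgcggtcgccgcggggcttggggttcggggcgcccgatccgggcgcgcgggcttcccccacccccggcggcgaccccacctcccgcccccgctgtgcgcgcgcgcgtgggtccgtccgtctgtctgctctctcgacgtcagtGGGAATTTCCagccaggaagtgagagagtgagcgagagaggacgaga
Tnfaip3: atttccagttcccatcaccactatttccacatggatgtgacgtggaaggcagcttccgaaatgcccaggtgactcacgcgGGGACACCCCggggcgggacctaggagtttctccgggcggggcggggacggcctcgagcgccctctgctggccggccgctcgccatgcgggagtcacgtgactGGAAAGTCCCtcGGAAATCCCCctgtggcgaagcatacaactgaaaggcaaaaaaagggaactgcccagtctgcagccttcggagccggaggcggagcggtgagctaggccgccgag
Of the 25 higher protein-coding genes selected by p or size, 16 had a promoter in the table, and 3 of these (18.8%) held the κB consensus, Nfkb1, Steap4 and Tnfaip3, against 7.6% of 27457 promoters. The STAT motif TTCNNNGAA was in 3 of the 16, Steap4, Icam1 and Hamp, against 8.68% of all, and the AP-1 motif TGANTCA in 3, Rnf125, Tnfaip3 and Hamp, against 7.33%. The promoters of Icam1 and Ptgs2 held no match to the κB consensus GGGRNNYYCC in this window. The Icam1 window holds TGGAAATTCC, which departs from it at the first base only, so a missing match does not show that a site is absent. Matches are descriptions of letters and were not tested.

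Receptors and adaptors upstream of NF-κB had few called members. In the TNF list of 24 genes 2 were higher and 0 lower, with a median of 0.07. Cflar, encoding the caspase-8 inhibitor c-FLIP, read 10.01, 10.57 and 10.60 in IRI + RPostC, against 9.74, 9.74 and 9.77 in IRI and 5.20 to 5.51 in control. It was higher by 0.64 ± 0.18. Tank, an adaptor of TRAF proteins, was higher by 0.22 ± 0.06. In the Toll-like receptor list of 26 genes 2 were higher and 0 lower, with a median of 0.04, and neither was a Toll-like receptor. Cd14, a co-receptor for bacterial lipopolysaccharide, read 7.20, 7.27 and 6.93 in IRI + RPostC, against 6.46 on all 3 IRI arrays and 5.89 to 6.12 in control. Irak3, a kinase-dead brake on the pathway, differed by 0.48 ± 0.12, again with identical IRI values, at 7.85.

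In the interleukin-6 list 3 of 17 genes were called higher and 0 lower, with a median of 0.07, and the 3 were the receptor subunit, the kinase and the transcription factor of 1 route. Il6st, encoding gp130, read 10.24, 10.52 and 10.12 in IRI + RPostC, against 9.69, 9.69 and 9.74 in IRI and 6.998 to 7.21 in control. Jak2 read 9.79, 9.52 and 9.46 in IRI + RPostC, against 8.74, 8.73 and 9.37 in IRI. Stat3 read 12.03, 12.37 and 12.06 in IRI + RPostC, against 11.81, 11.57 and 11.57 in IRI. None of the 3 overlapped between the groups, and the differences were 0.59 ± 0.11 for Il6st, 0.65 ± 0.22 for Jak2 and 0.50 ± 0.13 for Stat3. After quantile normalization Stat3 differed by 0.30, with a p of 0.0974, and Jak2 by 0.47, with a p of 0.051 (limma), so that neither was called. The call on Jak2 held in 1 of the 6 fits that left out an array. The ligand Il6 itself was not called. It read 16.53, 15.43 and 15.28 in IRI + RPostC, against 11.73, 13.44 and 16.60 in IRI and 3.55 to 4.41 in control, so that the IRI arrays spanned most of the range and the groups overlapped. Without IRI replicate 1 its difference of 1.82 became 0.73.

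**Figure D2:**
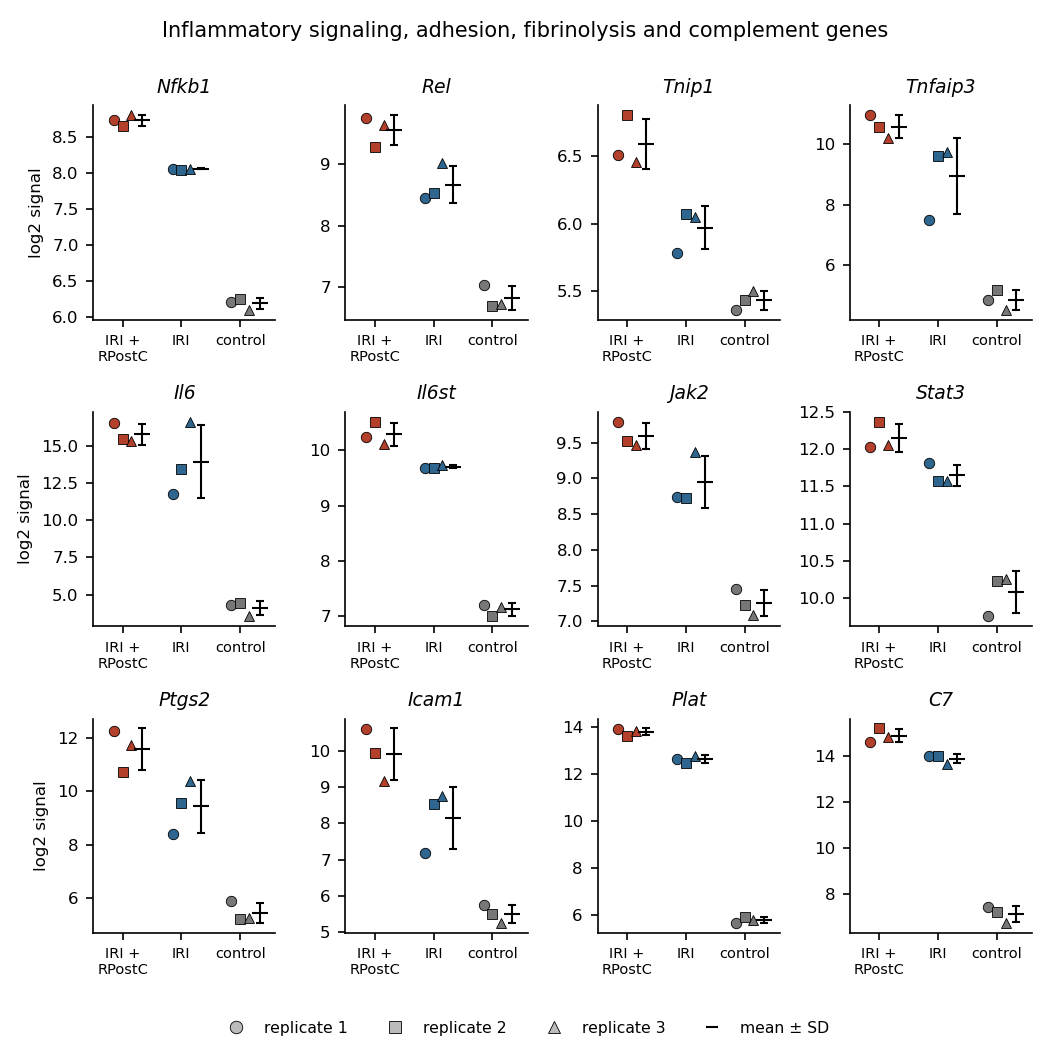
Log2 signal of 12 genes on every array, with IRI + RPostC at the left of each panel, IRI in the middle and control at the right; symbols are replicates, and the bar beside them is the mean ± SD of 3 arrays. Nfkb1 sits at 8.66 to 8.81 in IRI + RPostC and 8.05 to 8.07 in IRI, while Tnfaip3, Ptgs2 and Icam1 have their lowest IRI value in replicate 1 and Il6 overlaps.

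Ptgs2 and Icam1 had the largest differences among genes with a clear signal whose groups did not overlap, with wide spreads. Ptgs2, encoding cyclooxygenase-2, which makes prostaglandin precursors, read 12.27, 10.74 and 11.75 in IRI + RPostC, against 8.39, 9.55 and 10.37 in IRI and 5.20 to 5.88 in control. The groups did not overlap, and the difference was 2.15 ± 0.68, a 4.44-fold higher signal. It was the 1 called gene of the 23 in prostaglandin and leukotriene synthesis, whose median was 0.01. Icam1, the endothelial ligand that leukocytes grip, read 10.62, 9.95 and 9.18 in IRI + RPostC, against 7.17, 8.54 and 8.77 in IRI, a difference of 1.76 ± 0.60. In the list of vascular permeability and leukocyte adhesion, 2 of 20 genes were higher and 0 lower, with a median of -0.04. The other called gene was Edn1, encoding the vasoconstrictor endothelin-1, at 5.99, 5.78 and 6.16 in IRI + RPostC, against 5.43, 5.37 and 5.76 in IRI.

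IRI replicate 1 lay apart in this group of genes. Without it the difference was 1.63 for Ptgs2 and 1.26 for Icam1, and neither gene was called then. Ptgs2 was not called either without IRI + RPostC replicate 1 or 3 or IRI replicate 2, nor was Icam1 without IRI + RPostC replicate 1 or 2 or IRI replicate 2. Vcam1 and Ifit1, named after their values were seen, show how far that array stood off. Vcam1, another leukocyte ligand, read 12.99, 11.11 and 10.21 in IRI + RPostC, against 7.05, 10.71 and 11.83 in IRI. Ifit1, an interferon-induced gene, read 12.57, 10.35 and 10.43 in IRI + RPostC, against 4.74, 10.03 and 11.67 in IRI. Without IRI replicate 1 the difference was 0.17 in place of 1.58 for Vcam1 and 0.27 in place of 2.31 for Ifit1. Other arrays also moved it, and over the 6 fits that left out an array it reached 2.56 for Vcam1 and 3.735 for Ifit1. IRI + RPostC replicate 1 had the highest value of both genes.

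Chemokines divided. Of 26 genes 2 were higher and 1 lower, and the median was 0.01. Cxcl2, which draws neutrophils, read 8.94, 7.62 and 8.59 in IRI + RPostC, against 6.40, 6.68 and 7.78 in IRI, with 1 overlapping pair. Cxcl16 differed by 0.36 ± 0.13 and also overlapped. Ccl12, a monocyte chemokine, read 3.86, 3.72 and 3.89 in IRI + RPostC, against 4.17, 4.44 and 4.396 in IRI, all under the background level of 4.79.

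Fibrinolysis and complement genes carried some of the steadier differences. Plat encodes tissue plasminogen activator, which starts the digestion of fibrin clots. It read 13.94, 13.64 and 13.84 in IRI + RPostC, against 12.66, 12.49 and 12.79 in IRI and 5.67 to 5.91 in control, with no overlap. The difference was 1.16 ± 0.12, a 2.23-fold higher signal, and stayed between 1.08 and 1.24 with each array left out. Pros1, the anticoagulant protein S, was the other called gene of the 20 in that list, whose median was 0.13, at 8.04, 7.999 and 8.06 in IRI + RPostC, against 7.63, 7.42 and 7.77 in IRI. Among 18 complement genes 4 were higher and 0 lower, with a median of 0.00. C7, a component of the membrane attack complex, read 14.62, 15.21 and 14.84 in IRI + RPostC, against 13.99, 13.98 and 13.65 in IRI and 6.73 to 7.42 in control. C1r, a protease that starts the classical pathway, differed by 0.53 ± 0.13, and Serping1, the inhibitor of that protease, by 0.48 ± 0.15. C5ar1, the C5a receptor, differed by 0.27 ± 0.09 at signals of 4.64 to 5.08. Plat, Pros1, C7 and C1r were called in all 6 fits that left out an array, but Serping1 in only 2 and C5ar1 in 1.

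Interferon-inducible GTPases had the highest list median, 0.40, with 2 of 12 genes called higher and 0 lower. The study singled out GTPase activity from these arrays, so the list is not independent of them. Ifgga2l1 read 10.69, 10.65 and 10.77 in IRI + RPostC, against 9.12, 9.12 and 10.33 in IRI and 4.54 to 5.01 in control. RGD1309362 read 11.29, 11.16 and 11.24 in IRI + RPostC, against 9.96, 10.50 and 10.66 in IRI, and its other probe set, at 8.53, 8.51 and 8.70 against 7.71, 7.69 and 8.94, overlapped. Of 40 other interferon-stimulated genes 4 were higher and 0 lower, with a median of 0.12. Ifitm1, a membrane protein that blocks virus entry, read 6.90, 7.18 and 7.36 in IRI + RPostC, against 6.36, 6.41 and 6.37 in IRI. Parp9 differed by 0.53 ± 0.16, Oasl by 0.18 ± 0.07 and Ifi44l by 0.14 ± 0.03, the last with 3 identical IRI values. Oasl had 2 distinct IRI values, with replicate 1 at 4.23, under the background level of 4.79. Parp9 and Oasl were each called in only 2 of the 6 fits that left out an array.

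Early response and feedback genes had few called members. Of 23 immediate early transcription factors 1 was higher and 0 lower, with a median of -0.02. It was Nr4a1, an orphan nuclear receptor, at 8.94, 8.66 and 9.05 in IRI + RPostC, against 8.20 on all 3 IRI arrays. Errfi1, a feedback inhibitor of the EGF receptor, read 13.49, 13.02 and 13.55 in IRI + RPostC, against 12.63 on all 3 IRI arrays and 9.03 to 9.37 in control. It was the 1 called gene of 17 MAPK phosphatases and Sprouty-type inhibitors and, with Cebpd and Lcn2, 1 of the 3 called higher among 16 glucocorticoid-induced genes. Cebpd, an acute-phase transcription factor, read 8.25, 7.87 and 7.95 in IRI + RPostC, against 7.46, 7.37 and 7.28 in IRI. Bhlhe40, a repressor of the circadian clock and a hypoxia target, read 15.05, 15.05 and 15.61 in IRI + RPostC, against 14.28, 14.37 and 14.07 in IRI and 8.02 to 8.53 in control, a difference of 1.00 ± 0.19. The JNK and p38 list had 2 of 22 genes higher and 0 lower, Gadd45b by 0.34 ± 0.12 and the kinase Map2k4 by 0.32 ± 0.12. The TGF-β list had 1 of 22, the SMAD repressor Skil, by 0.40 ± 0.11.

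**Figure D3:**
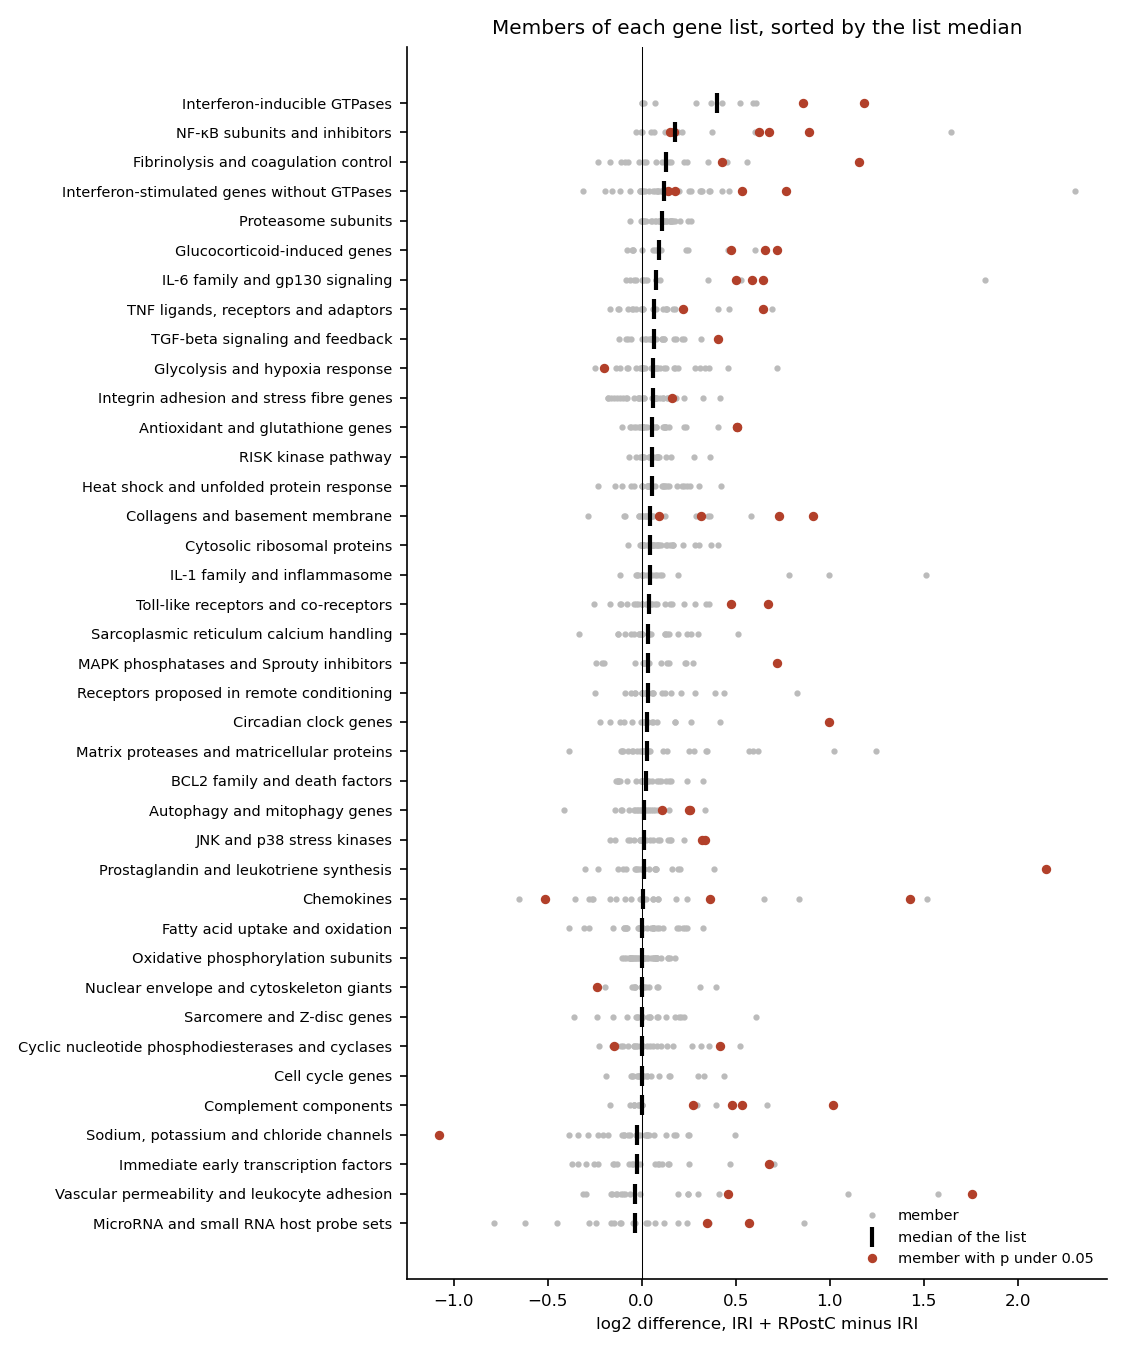
Every measured member of each gene list is a point at its log2 difference, IRI + RPostC minus IRI, with called members (unadjusted p under 0.05) in red and the list median as a black bar; cell type marker lists are not drawn, and lists run from the highest median at the top to the lowest. The interferon-inducible GTPases (0.40) and the NF-κB list (0.18) stand at the top, and the microRNA hosts and vascular list (-0.04 each) at the bottom.

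Several genes of glucose, lipid and metal handling were named by p or by size. Slc2a3, the glucose transporter GLUT3, had 2 probe sets. The brighter read 8.26, 8.004 and 8.19 in IRI + RPostC, against 7.33 on all 3 IRI arrays and 5.59 to 5.96 in control, a difference of 0.82 ± 0.07. The dimmer read 7.60, 7.55 and 7.56 in IRI + RPostC, against 7.01, 7.01 and 7.04 in IRI, a difference of 0.55 ± 0.02. This dimmer probe set had the smallest adjusted p of the table, 0.229, and with only the 13117 probe sets tested whose brighter group averaged 6 or more, it was the 1 that passed, at an adjusted p of 0.0431. Its IRI values on replicates 1 and 2 were identical, at 7.00986. The limit given above for repeats therefore holds for its small IRI SD of 0.0145 and for this p.

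Gfpt2, the first enzyme of hexosamine synthesis, read 14.23, 13.31 and 13.97 in IRI + RPostC, against 12.34, 11.81 and 12.57 in IRI and 7.10 to 7.58 in control. The groups were apart on every array, by 1.60 ± 0.33. Steap4, a metalloreductase, read 9.10, 9.29 and 9.12 in IRI + RPostC, against 8.51, 8.45 and 8.51 in IRI. Fabp5, a fatty acid carrier of endothelial and other cells, read 13.78, 13.74 and 13.84 in IRI + RPostC, against 12.92, 12.44 and 12.44 in IRI and 5.94 to 6.96 in control, a 2.28-fold higher signal. Acsl4, which loads arachidonic acid onto coenzyme A, differed by 0.28 ± 0.02, with 2 of its IRI values identical, and the phospholipid flippase Atp8b1 by 0.74 ± 0.09. Several secreted or metal-binding products had larger and less even differences. Stc1, the hormone stanniocalcin, read 11.20, 12.18 and 13.21 in IRI + RPostC, against 10.09, 11.04 and 10.33 in IRI. The metallothionein Mt1f read 12.09, 12.80 and 12.20 in IRI + RPostC, against 11.34, 10.40 and 10.53 in IRI. Hamp, the iron hormone hepcidin, read 8.10, 9.42 and 9.48 in IRI + RPostC, against 7.90, 7.10 and 7.28 in IRI. None of these overlapped, which their ranking by size required, and Stc1 and Hamp were each called in only 2 of the 6 fits that left out an array.

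In the list of collagens and basement membrane 4 of 24 genes were called higher and 0 lower, with a median of 0.05, and the classical fibril collagen among them was Col5a2, at 0.09 ± 0.03, which was not called after quantile normalization, at 0.03. Fbn1, encoding fibrillin-1, read 10.04, 9.58 and 10.08 in IRI + RPostC, against 9.09, 9.09 and 8.80 in IRI and 7.74 to 7.88 in control. Fn1, encoding fibronectin, read 9.29, 8.72 and 8.86 in IRI + RPostC, against 8.23, 8.22 and 8.23 in IRI. Col14a1 differed by 0.32 ± 0.07 with IRI values identical at 6.90. Postn, encoding periostin, read 8.10, 7.56 and 8.05 in IRI + RPostC, against 5.47, 7.27 and 7.22 in IRI, and control stood higher, at 7.56 to 9.75. Its p was 0.085, and without IRI replicate 1 the difference of 1.25 became 0.65. The protease inhibitor Pi15 differed by 1.22 ± 0.29.

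The 11 fibroblast markers had a median difference of 0.22 with 0 called, and their mean signal was 9.32 to 9.36 in IRI + RPostC, against 8.95 to 9.11 in IRI and 7.58 to 8.08 in control. The fibroblast marker with the smallest p was Mfap5, at 8.37, 8.34 and 9.08 in IRI + RPostC, against 8.01, 8.01 and 7.24 in IRI. The 10 macrophage markers had a mean signal of 6.39 to 6.65 in IRI + RPostC, against 6.12 to 6.38 in IRI and 5.88 to 5.97 in control, with Cd14 and the Fc receptor Fcgr1a called. Fcgr1a read 5.28, 5.41 and 5.36 in IRI + RPostC, against 5.07, 5.05 and 5.08 in IRI. The part of either cell type in the differences above was not tested. The 12 neutrophil markers had a mean of 5.33 to 5.68 in IRI + RPostC and 5.39 to 5.49 in IRI, with only Lcn2 called higher, by 0.47 ± 0.15. Among red blood cell markers Alas2, the first enzyme of heme synthesis, was called higher, by 0.11 ± 0.04, and stood above both groups in control, at 7.25 to 7.79. Of 12 markers of T, NK and B cells 0 had a clear signal and 7 lay under the background level. The 10 endothelial markers averaged 9.84 to 9.90 in IRI + RPostC and 9.52 to 10.45 in IRI. The 6 cardiomyocyte markers, which place the tissue as heart muscle, averaged 16.98 on all 6 arrays and had the same value on each, so they carry no comparison.

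**Figure D4:**
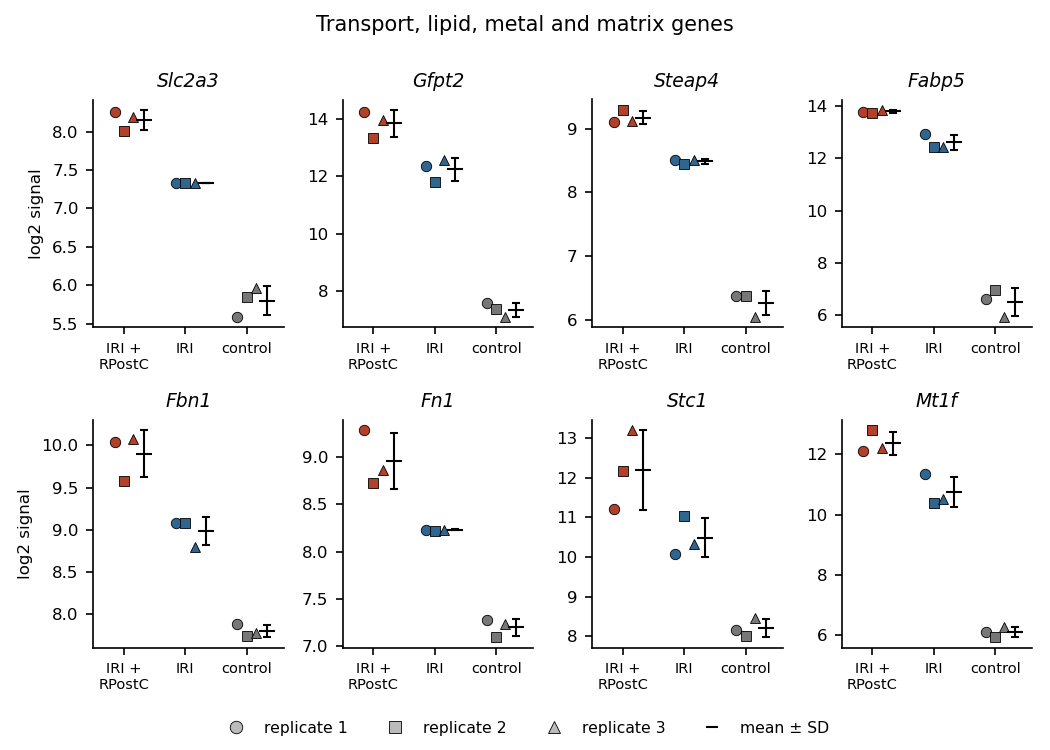
Log2 signal of 8 genes of transport, lipid, metal and matrix on every array, with IRI + RPostC left, IRI in the middle and control right; symbols are replicates, and the bar is the mean ± SD of 3 arrays. In all 8 panels the 3 IRI + RPostC arrays lie above the 3 IRI arrays, by 0.68 for Steap4 up to 1.71 for Stc1, and the IRI values of Slc2a3 coincide at 7.33. All but Fbn1 and Fn1 were ranked among genes whose groups did not overlap, so their separation was fixed by that rule.

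Chd1, Acsl4, Sdcbp, Golt1b and Ythdc2 followed Nfkb1 in the order of p, with small differences. Chd1, a chromatin remodeler, read 9.37, 9.29 and 9.37 in IRI + RPostC, against 8.92 on all 3 IRI arrays. Sdcbp, encoding syntenin, read 12.60, 12.60 and 12.54 in IRI + RPostC, against 12.29 on all 3 IRI arrays, and the Golgi transport gene Golt1b differed by 0.33 ± 0.02. Ythdc2, an RNA helicase, differed by 0.37 ± 0.03 on 1 probe set and by 0.08 ± 0.06 on its other. Chd1, Sdcbp, Golt1b, Ythdc2, Hivep1 (0.23 ± 0.02) and the phosphatase subunit Ppp2r2a (0.19 ± 0.02) all had identical IRI values, and the direction of Ppp2r2a turned to -0.03 after quantile normalization. Rnf125, a ubiquitin ligase that acts on antiviral sensors, read 10.03, 10.19 and 10.08 in IRI + RPostC, against 8.90, 9.10 and 9.29 in IRI and 6.21 to 7.03 in control. Enc1, an adaptor of a ubiquitin ligase, differed by 0.53 ± 0.06, and Zc3h13, of the RNA methylation complex, by 0.17 ± 0.02, each with 2 identical IRI values. After quantile normalization Zc3h13 differed by 0.06 and Sdcbp by 0.07, and neither was called.

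Of 31 antioxidant and glutathione genes 2 were higher and 0 lower, the extracellular superoxide dismutase Sod3, at 6.29, 6.04 and 6.26 in IRI + RPostC, against 5.69 on all 3 IRI arrays, and Gclc, the rate-limiting enzyme of glutathione synthesis, by 0.51 ± 0.16. Of 25 autophagy genes 3 were higher and 0 lower, Lamp2 by 0.25 ± 0.04, Atg16l1 by 0.26 ± 0.07 and Atg4b by 0.11 ± 0.04. Over all genes 1.8% were called higher, and of the 5057 with a clear signal 254 were. Of the 25 autophagy genes 16 had a clear signal. None of these 3 autophagy genes was called after quantile normalization, where they differed by 0.02, 0.15 and 0.10. Of 34 integrin and stress fibre genes 1 was called, Itgb5, by 0.16 ± 0.03.

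The 20 RISK kinase genes had a median of 0.05, between -0.06 and 0.37, with 0 called in either direction. The 27 receptors proposed in remote conditioning had a median of 0.03 with 0 called, and 15 of them lay under the background level. The 25 genes of the BCL2 family and death factors had 0 called and a median of 0.02, and the 30 heat shock and unfolded protein genes had 0 called and a median of 0.05. Genes of the working muscle had none either. The 45 oxidative phosphorylation subunits had 0 called and lay between -0.10 and 0.18, and the lists of fatty acid oxidation (32 genes), sarcoplasmic reticulum calcium handling (25), sarcomere (30), cytosolic ribosomal proteins (42), proteasome (32) and cell cycle (26) had 0 called each. The 18 genes of the interleukin-1 family and the 29 matrix proteases and matricellular genes also had 0 called. At a p above 0.05 with 3 arrays a group, these counts do not show that the levels were the same. Some members could not be called at all, since their mean was the same in both groups. Of the 30 sarcomere genes 11 differed upward and 7 downward, and of the 45 oxidative phosphorylation subunits 20 and 15, the rest having no difference.

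Few bright genes were lower. Scn7a, encoding a sodium channel that senses sodium concentration, read 9.99, 9.72 and 9.01 in IRI + RPostC, against 11.12, 10.48 and 10.37 in IRI and 6.94 to 7.78 in control. The groups did not overlap, and the difference was -1.08 ± 0.35, the lowest of the genes with a clear signal. It was called in 2 of the 6 fits that left out an array. Rpl36l6, a ribosomal protein-like gene whose signal may be shared with its near-identical relatives, read 6.77, 6.69 and 6.74 in IRI + RPostC, against 7.20, 6.90 and 7.20 in IRI. Vamp8, a vesicle fusion protein, read 5.84, 5.53 and 5.59 in IRI + RPostC, against 6.03 on all 3 IRI arrays.

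Smaller differences were seen in Syne1, which encodes the nuclear envelope protein nesprin-1, at 8.11, 7.85 and 7.85 in IRI + RPostC, against 8.12, 8.22 and 8.19 in IRI. Its other probe set differed by -0.09 ± 0.20 and overlapped. The 29 cyclic nucleotide phosphodiesterase and cyclase genes gave 1 called gene each way: Pde2a, which cyclic GMP activates, at 6.80, 6.85 and 6.73 in IRI + RPostC, against 6.94 on all 3 IRI arrays, and Pde7a, which breaks down cyclic AMP, at 6.61, 6.65 and 6.65 in IRI + RPostC, against 6.15, 6.31 and 6.20 in IRI. Control lay at 8.87 to 9.49 for Pde7a, above both. The glycolysis list had 1 of 32 genes lower, Pfkfb1, by -0.20 ± 0.06 at signals under the background level, and Mrps23, a mitochondrial ribosomal protein, differed by -0.17 ± 0.05. Chrdl1, an antagonist of bone morphogenetic proteins, read 7.005, 7.005 and 7.08 in IRI + RPostC, against 8.51, 7.26 and 7.30 in IRI. The high IRI replicate 1 set that size, since without it the difference of -0.66 became -0.25. C1qtnf9, with all 3 IRI + RPostC values identical at 7.55, behaved alike, with -0.30 and -0.13 without that array. Cavin1 differed by -0.27 ± 0.13. None of Chrdl1, C1qtnf9 and Cavin1 was called, with p of 0.148, 0.122 and 0.101 (limma).

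**Figure D5:**
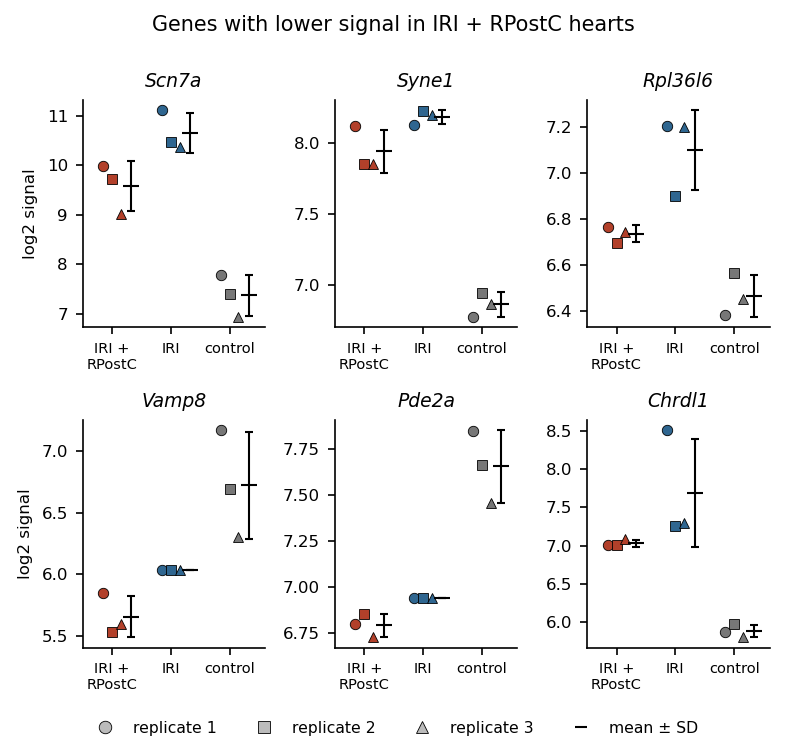
Log2 signal on every array of 6 genes with lower signal in IRI + RPostC, shown left of IRI and control; symbols are replicates, and the bar is the mean ± SD of 3 arrays. Scn7a spans 9.01 to 9.99 in IRI + RPostC and 10.37 to 11.12 in IRI, and the IRI values of Vamp8 and Pde2a coincide.

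Of the 667 higher probe sets 431 had no gene symbol, 203 were protein-coding and 4 were long noncoding RNAs, and of the 585 lower ones 498 had no symbol, 58 were protein-coding and 14 were long noncoding RNAs. The array holds 42855 probe sets without a symbol, and 1.01% of these were higher, close to the 1.02% of all probe sets. The probe set TC1100001567.rn.1 read 9.67, 9.54 and 9.64 in IRI + RPostC, against 8.75, 8.84 and 8.75 in IRI and 3.97 to 4.65 in control. TC0700000991.rn.1 read 8.55, 8.28 and 8.57 in IRI + RPostC, against 7.09, 7.27 and 7.20 in IRI. In the other direction, TC1000003655.rn.1 read 5.93, 5.97 and 5.97 in IRI + RPostC, against 6.47, 6.66 and 6.69 in IRI. TC1700002133.rn.1 read 10.57, 10.53 and 10.86 in IRI + RPostC, against 11.21, 11.40 and 11.41 in IRI, and another probe set carried the same values on every array.

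Among 21 microRNA and small RNA hosts 2 were called higher and 0 lower, with a median of -0.04. A probe set of this kind reads the precursor or its host transcript, not the mature microRNA. Mir22 read 8.71, 9.42 and 9.02 in IRI + RPostC, against 8.63, 8.36 and 8.45 in IRI and 6.54 to 6.63 in control, with no overlap, and was called in 1 of the 6 fits that left out an array. Mir146a, whose transcription NF-κB is known to drive, differed by 0.35 ± 0.13 at signals of 3.07 to 3.76, under the background level. The mature sequences of Mir22, the 1 of the 2 with a clear signal, are given from RefSeq, with the seed in capitals. They lie at chr10:60805349-60805370 and chr10:60805387-60805408 on the plus strand of GRCr8.
rno-miR-22-5p: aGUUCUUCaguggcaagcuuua
rno-miR-22-3p: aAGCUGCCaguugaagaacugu
The seeds of the 2 arms differ, so they fall in separate seed groups.

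Set against control, the higher genes were mostly ones that stood above control in IRI already. Of the 174, the IRI mean lay above all 3 control arrays in 155, below all 3 in 15 and among them in 4, while over all 5057 genes with a clear signal it lay above in 2666 and below in 1555. The median signal of the 174 was 8.41 in IRI + RPostC, 7.89 in IRI and 6.49 in control, against medians of 7.35, 7.27 and 7.03 in the same order over all 5057. Because the IRI arrays enter both differences, these counts describe levels and are not a separate test. The control arrays differed in scale from the other 6. On the control arrays 166 to 172 probe sets read 19 or more, against 1918 to 1948 on the other 6. The median over probe sets with a clear signal on the 6 arrays was 6.80 to 6.89 on control, against 7.36 to 7.51. The part of scale in these levels, and in the control values given for single genes, was not tested.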

How the data were processed

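RNA of the left ventricle was hybridized on Affymetrix whole-transcript arrays; the methods name the Rat Gene 2.0 ST chip and the series text a human transcriptome array. RNA came from TRIzol and RNeasy extraction. The authors processed the scans by robust multichip analysis, and their deposited numbers, which span 2.04 to 19.9, are read here as log2 signals. No source used here gives its version or filters. Gene names come from the platform's own annotation, which is dated, with symbols checked against a RefSeq table of GRCr8: 22070 had 1 symbol, 478 several and 42855 none, and 20946 of 20958 genes matched. The probe set with the highest mean stood for a gene in gene lists.

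IRI + RPostC was tested against IRI by limma 3.58.1 under R 4.3.3, with lmFit and eBayes on the 6 arrays and no filter, and Benjamini-Hochberg adjustment over 65403 probe sets. Simulated data of the same size were drawn from normal distributions with the mean and pooled SD of each probe set. Repeats within 1 group were not copied, but they lowered that SD. It was 0 in the 3967 probe sets tied in both groups. Changes were put only into probe sets that averaged at least 6, without values of 19 or more. An adjusted p of 0.05 recovered 29 of 100 made to differ by 1 on the log2 scale and 53 of 100 by 2. It also passed 6 probe sets that had not been changed. Genes were named by rule: the 15 of smallest p and the 10 of largest size in each direction among protein-coding genes whose brighter group averaged at least 6, without overlap or values of 19 or more, up to 4 per list by p, noncoding or unnamed probe sets, and fixed names. The lists, 50 with 1082 measured entries, and the members were chosen with earlier results of these data known. Motifs were searched on both strands. Python 3.11.15 was used for tables, with figures in matplotlib 3.10.9. The number of arrays limits the precision.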

Additional observations from a re-analysis of the deposited data

How the results depend on the processing

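Of the 101 genes and probe sets named, all kept their direction under the alternatives run, except that Ppp2r2a turned to -0.0275 after quantile normalization. All also kept their side of an adjusted p of 0.05, which means only that none of them passed in any fit. The unadjusted calls were less stable, as given below. The 1 probe set that passed was the dimmer one of Slc2a3, with only probe sets tested whose brighter group averaged at least 6. It had identical values on IRI replicates 1 and 2. Against 667 higher and 585 lower probe sets, that filter left 399 and 53, centring on the array median gave 1506 higher and 686 lower, a fold of 1.5 gave 242 and 68, no fold limit gave 1005 and 1064, array weights gave 993 lower, and the methods' t-test gave 495 and 371, with 0 after Benjamini-Hochberg. Leaving out each array gave 629 to 1040 higher and 498 to 1213 lower. Of 91 called genes named, 32 were not called without at least 1 array: Ptgs2, Icam1, Stc1, Hamp, Mrps23, Scn7a, Syne1, Cflar, Jak2, Cxcl16, Cxcl2, Ifgga2l1, Parp9, Oasl, Edn1, Gadd45b, Map2k4, Gclc, Atg16l1, Atg4b, Pfkfb1, Col5a2, Skil, Serping1, C5ar1, Lcn2, Mir22, Mir146a, Alas2, Vcan, Maoa and Fgf2. After quantile normalization 23 of the 91 were not called, Sdcbp, Ppp2r2a, Zc3h13, Stc1, Chuk, Tank, Cflar, Stat3, Jak2, Cxcl16, Cxcl2, Gadd45b, Map2k4, Lamp2, Atg16l1, Atg4b, Col5a2, Serping1, Mir22, Alas2, Vcan, Bgn and Maoa, and 13 after cyclic loess, 7 after centring, 24 with replicate number as a block, 15 with the control arrays in the fit, 13 by the methods' t-test, 4 with trend and robust variance and 2 with array weights. Of the genes with a clear signal, 174 higher and 2 lower, quantile normalization gave 89 and 23, centring 276 and 3, a fold of 1.5 gave 72 and 1, no fold limit 254 and 6, array weights 221 and 4, cyclic loess 127 and 10, and leaving out each array 148 to 312 and 1 to 9. Those without overlap, 364 higher and 17 lower, became 164 and 882 under quantile normalization, 215 and 430 under cyclic loess and 416 and 5 after centring. The cause was not tested. The counts of genes with a clear signal and cyclic loess were chosen after seeing the data. With replicate number as a block, 695 probe sets were higher and 635 lower, and 121 of the 157 higher genes with a clear signal were among the 174. Residuals of arrays with the same number correlated at -0.4, 0.092 and -0.26, so the numbers were not taken as pairs. Across different numbers they ran from -0.59 to 0.61. The lowest was IRI + RPostC replicate 2 with IRI replicate 3, and the highest IRI + RPostC replicate 1 with IRI replicate 3. Residuals were thus shared across the groups, and the source of this was not tested.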

Other observations

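Some called genes with a clear signal lay outside the gene lists and rankings and were chosen after their values were seen. Uap1, an enzyme further down the hexosamine route that Gfpt2 opens, read 13.29, 12.90 and 12.87 in IRI + RPostC, against 12.21 on all 3 IRI arrays and 7.33 to 7.92 in control. The matrix proteoglycan Vcan read 12.77, 10.88 and 12.14 in IRI + RPostC, against 10.10, 10.02 and 10.93 in IRI, with 1 pair out of order. Bgn, another proteoglycan, read 14.40, 14.29 and 14.61 in IRI + RPostC, against 13.88, 12.88 and 13.29 in IRI, and control stood above both at 15.64 to 16.30.

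F2r, the thrombin receptor, read 10.45, 10.69 and 11.09 in IRI + RPostC, against 9.85, 9.68 and 9.48 in IRI. Ackr1, a chemokine-binding receptor of venular endothelium, read 7.12, 7.22 and 7.34 in IRI + RPostC, against 6.75, 6.40 and 6.31 in IRI. Maoa, which oxidizes amines and yields hydrogen peroxide, differed by 0.85 ± 0.28, and the growth factor Fgf2 by 0.53 ± 0.14. None of these passed the adjusted threshold.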
